A study of Oryctolagus cuniculus with 8 samples.

Results

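The retinas of rabbits fed a high-fat diet (HFD) were compared with those of rabbits fed normal chow (ND) across all protein-coding genes, 4 of the 8 retinas sequenced, 2 in each group. All animals were male Chinchilla rabbits with the genotype label WT, about 10 months old after 6 months on their diets. The ND group ate standard chow, and the HFD group ate the same chow with 10% lard and 0.5% cholesterol. The other 4 retinas came from the HSD group (40% sucrose) and the HFSD group (the HFD with 35% sucrose as well). Their levels appear below only beside one in HFD, but they share the fit and its estimate of the spread, and with the 4 libraries of HFD and ND alone 295 genes instead of 526 were at an unadjusted p under 0.05. The labels do not say whether the 2 retinas of a group came from 2 rabbits, so each p value measures the spread between these samples, which may be technical. RNA was taken from dissected retina and not from sorted cells, so fewer cells of a type and less RNA per cell cannot be told apart.

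The retina is neural tissue in which rods and cones pass signals through bipolar cells to ganglion cells, with horizontal and amacrine cells shaping them on the way and Müller glia spanning the whole thickness. The pigment epithelium lies against the outer side, recycles retinol for the visual pigments and takes up shed photoreceptor membrane, so it meets both circulating and photoreceptor lipid. Immediate early genes are switched on within minutes of a stimulus such as light, activity or stress, and their transcripts are short-lived. In rabbits, myelinated nerve fibers and the larger blood vessels run only in a band beside the optic nerve head.

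Levels are FPKM, which divides the fragments of a gene by its length and by the size of the library. Differences are HFD minus ND on the log2(FPKM + 1) scale, with the standard error after ±. The library depths behind the FPKM values were 19561990 and 17706804 in ND and 19970643 and 18248202 in HFD, and 1 fragment on a gene of 1 kb is worth 0.0501 to 0.0565 FPKM in these 4 libraries. Photoreceptor RNA was abundant in all 4, with SAG, rod arrestin, at 3153 and 3279 FPKM in ND and 3820.3 and 3528 in HFD, so the label retina was borne out. The values of the 2 ND retinas correlated at 0.970 across the tested genes, those of the 2 HFD retinas at 0.975, and those of an ND and an HFD retina at 0.975 to 0.978, which describes the libraries and is not a test.

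Across the 12204 genes tested, 1 gene differed between HFD and ND by limma at an adjusted p under 0.05 (0.00819% of the genes). It is a protein-coding gene that carries no symbol in the table, at 23.4 and 15.8 FPKM in ND and 349.6 and 251 in HFD (154, 94, 2346 and 1542 fragments in the 4 libraries), a rise of 3.88 ± 0.22 with an adjusted p of 0.003. Its level was also high in the sucrose diets, 256 and 240.3 FPKM in HSD and 259 and 298 in HFSD, so the 2 ND retinas were the low ones among 8. Every other gene described below missed the adjusted threshold in this comparison, most with an adjusted p of 0.998, and for those the levels, the difference and its standard error are given. The count at an unadjusted p under 0.05 is a description, not a call. A gene was tested if it reached 1 FPKM in at least 2 libraries. For 4 tested genes both HFD retinas alone did so and for 15 both ND retinas alone, so these genes had to differ. EDN2 is one of the 4, and ACSL5, STRA6, SLC39A12, SLC22A8, LRAT and TNFSF13B are among the 15, and their differences are given as descriptions.

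Without adjustment, 220 genes (1.8%) lay higher in HFD at a p under 0.05 and 306 (2.51%) lay lower. Both HFD retinas lay above both ND retinas for 1529 genes (12.5%) and below them for 1628 (13.3%). By the fold rule of the study, which compares group means of FPKM + 1 with an upper and a lower limit, 183 of 19293 protein-coding genes (0.949%) lay above and 156 (0.809%) below. Both retinas stood clear of ND in 116 of the 183 and in 114 of the 156. The balance of directions depended on scaling: 51.2% of the tested genes were higher in HFD as deposited and 39.4% once every library was scaled to the same FPKM sum, where 150 genes lay higher and 443 lower at an unadjusted p under 0.05. HFD replicate 1 had the largest sum of protein-coding FPKM, 613559.2, against 533638.1 and 573512.5 in ND and 541266.9 in HFD replicate 2.

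The gene nearest to the threshold after the called one was BAG2, which encodes a co-chaperone of HSP70. Its levels were 36.96 and 36.7 FPKM in ND and 71.3 and 70.1 in HFD, with no overlap and hardly any spread within a group. The difference was 0.92 ± 0.10 with an adjusted p of 0.111, and that adjusted p lay between 0.0705 and 0.461 over 11 alternative settings. HSD was as high (75.7 and 72.2 FPKM) and HFSD less so (55.8 and 53.7 FPKM).

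Among genes with a symbol, an unadjusted p under 0.05 and retinas that did not overlap, the 12 highest differences in HFD belonged to a mixed set. HCRT, the orexin neuropeptide precursor, headed it at 5.501 and 2.52 FPKM in ND against 26.8 and 21.7 in HFD (2.39 ± 0.61). CHI3L1, a secreted glycoprotein that astrocytes and macrophages make in inflammation, stood at 35.1 and 30.4 FPKM in ND against 69.2 and 91.02 in HFD (1.26 ± 0.35), and both HFD retinas exceeded the other 6. EDN2, an endothelin that stressed photoreceptors can release, was at 0.262 and 0.372 FPKM in ND against 1.32 and 3.53 in HFD (1.30 ± 0.33), low levels throughout. Only the HFD retinas brought EDN2 over the filter, so its place here was open to no other direction. PPP1R1B, the dopamine-regulated phosphatase inhibitor DARPP-32, was at 24.7 and 26.7 FPKM in ND against 65.5 and 50.3 in HFD (1.13 ± 0.39).

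CHCHD10, a protein of the mitochondrial intermembrane space, was the most abundant of the 12 at 302 and 584 FPKM in ND against 819 and 842 in HFD (0.98 ± 0.40), with the ND retinas themselves far apart. GNB4, a G protein beta subunit, was at 2.46 and 2.11 FPKM in ND against 6.15 and 5.45 in HFD (1.05 ± 0.29). SNX7, a sorting nexin of endosomes, was at 3.85 and 3.101 FPKM in ND against 10.9 and 6.38 in HFD (1.07 ± 0.44). The mechanotransduction channel subunit TMC1 was at 0.336 and 2.88 FPKM in ND against 2.92 and 8.18 in HFD with the higher ND and the lower HFD retina almost level, and CCDC62 stood at 0.649 and 0.922 FPKM in ND against 2.91 and 4.02 in HFD. SFTPD, a lung surfactant lectin, was listed at 0 in both ND retinas and at 1.43 and 0.866 FPKM in HFD. ID1 and CYTL1 complete the 12 and are given with their groups.

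At the other end, EGR1, DUSP2, TTR, TYRP1, PMEL, MFRP, STRA6 and SLC39A12 are described with their groups, and RPE65, LRAT and RDH5 belong to retinol metabolism. The remaining one of the 12, TNFSF13B, encodes the B cell survival factor BAFF and was at 4.52 and 1.74 FPKM in ND against 0.533 and 0.269 in HFD (-1.48 ± 0.33). Only the ND retinas brought TNFSF13B, STRA6, SLC39A12 and LRAT over the filter. Of the 12 genes on the high side, 4 (HCRT, EDN2, ID1 and CYTL1) are members of the lists.

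**Figure D1:**
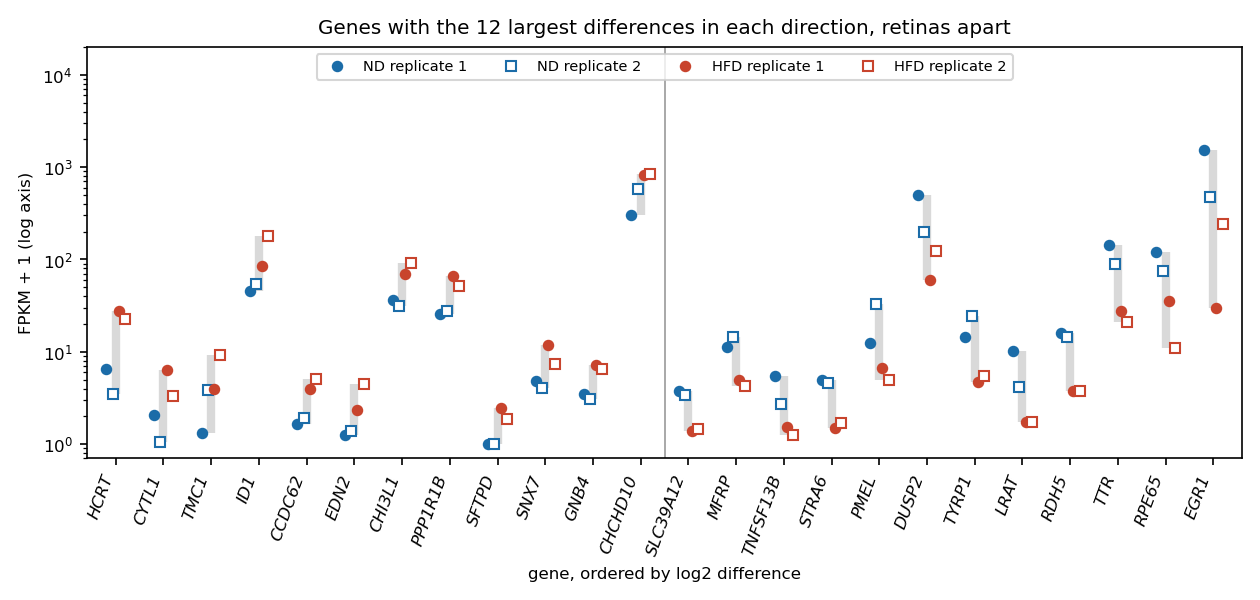
FPKM + 1 on a log axis for the 24 symbol-bearing genes with the largest differences in either direction among those with an unadjusted p under 0.05 and retinas apart; blue is ND, red is HFD, filled circles are replicate 1 and open squares replicate 2, and grey bars span the 4 values. HCRT has the largest log2 difference on the high side, at 26.8 and 21.7 FPKM in HFD against 5.50 and 2.52 in ND, and EGR1 on the low side, where the 2 HFD retinas stood at 28.9 and 242 FPKM.

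Early-response genes set the 4 retinas apart one by one more than they separated the diets. EGR1, a zinc finger transcription factor that light and activity induce, was the extreme case at 1548 and 468 FPKM in ND and 28.9 and 242 in HFD (-3.32 ± 1.04). ND replicate 1 was the highest of all 8 retinas and HFD replicate 1 the lowest, and HFD replicate 2 lay within the 131 to 375 FPKM of the HSD and HFSD retinas. FOSB and FOS, partners of JUN in the AP-1 complex, were also highest in ND replicate 1 and lowest in HFD replicate 1, FOSB at 169.7 and 19.5 FPKM in ND against 2.68 and 24.8 in HFD and FOS at 285 and 51.3 FPKM in ND against 10.01 and 222 in HFD, and here the groups overlapped. JUN itself varied less, at 118 and 67.8 FPKM in ND against 64.1 and 95.8 in HFD.

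Of 13 tested immediate early transcription factors, 1 lay above (KLF10) and 2 below (EGR1 and SRF) with retinas apart, near the 12.5% and 13.3% of all tested genes, and EGR1 was the one at an unadjusted p under 0.05. SRF, the serum response factor that drives many of the others, was at 14.3 and 14.1 FPKM in ND against 12.8 and 11.6 in HFD. KLF10, induced by TGF-β, was at 2.098 and 1.53 FPKM in ND against 2.16 and 6.18 in HFD, with HFD replicate 1 barely above the higher ND retina. The remaining ones overlapped: KLF6 at 6.45 and 7.31 FPKM in ND against 7.42 and 5.62 in HFD, MYC at 2.83 and 1.45 FPKM in ND against 1.82 and 1.41 in HFD. NR4A3 was at 1.002 and 0.495 FPKM in ND against 0.749 and 1.87 in HFD.

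Another set of early genes was high in HFD replicate 2 alone. ATF3, a stress-induced transcription factor, was at 9.701 and 7.63 FPKM in ND against 7.74 and 53.5 in HFD, and the orphan nuclear receptors NR4A1 and NR4A2 at 31.6 and 10.5 FPKM in ND against 13.7 and 95.8 in HFD and at 9.77 and 4.98 FPKM in ND against 5.41 and 31.8 in HFD. MAFF, a small Maf factor, was at 3.23 and 1.44 FPKM in ND against 1.68 and 7.81 in HFD. Named after their values were seen, BTG2, an antiproliferative gene, was at 14.8 and 12.5 FPKM in ND against 3.24 and 153 in HFD and CEBPB, a factor of the acute-phase response, at 4.35 and 5.58 FPKM in ND against 4.68 and 26.8 in HFD. RASD1, a glucocorticoid-induced small GTPase, was at 3.03 and 5.02 FPKM in ND against 4.83 and 28.5 in HFD and the Notch target HES1 at 19.4 and 37.2 FPKM in ND against 25.3 and 115 in HFD. In each of these 8 genes HFD replicate 1 lay within or below the range of ND.

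Counted over the 70 tested genes of the 5 early-gene lists, HFD replicate 2 was the highest of the 8 retinas by at least 2-fold (on FPKM + 1) for 13 genes, 18.6%, against 20 of all 12204 tested genes, 0.164%. ND replicate 1 was so for 3 of the 70 (EGR1, DUSP2 and FOSB), ND replicate 2 for 1 (NUPR1), and the other 5 retinas for 0, a count chosen after the values were seen. By the fold rule, 19 genes of these lists lay above the upper limit and 6 below the lower one, and without HFD replicate 2 these counts were 3 and 7. Over all protein-coding genes the rule gave 183 above (0.949%) and 156 below (0.809%), and 245 and 397 without HFD replicate 2. Time from death to RNA extraction, light and time of day are not given in the labels, and their part in these levels was not tested.

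**Figure D2:**
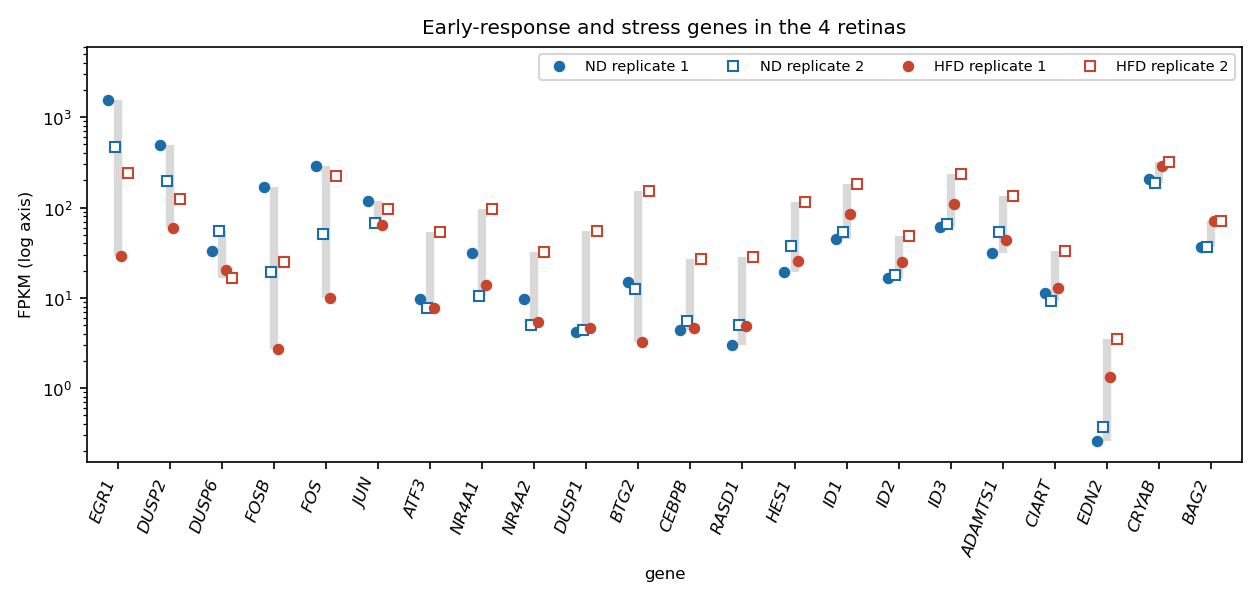
FPKM on a log axis of 22 early-response, stress and chaperone genes in the 4 retinas; blue is ND, red is HFD, filled circles are replicate 1 and open squares replicate 2, and grey bars span the 4 values. From ATF3 to HES1 the open red square stands alone at the top, whereas BAG2 and CRYAB show 2 close values a group.

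Feedback inhibitors, which shut growth factor and MAP kinase signals down again, went in both directions. DUSP2 and DUSP6, phosphatases of ERK, were lower in HFD, DUSP2 at 493 and 198 FPKM in ND and 59.5 and 124 in HFD (-1.85 ± 0.51) and DUSP6 at 33.3 and 55.3 FPKM in ND and 20.3 and 16.7 in HFD (-1.18 ± 0.32). In DUSP6 the HSD and HFSD retinas lay between 10.7 and 18.4 FPKM, and the ND retinas stood above all 6. DUSP5, another ERK phosphatase, was at 2.67 and 2.78 FPKM in ND against 1.82 and 1.58 in HFD (-0.47 ± 0.22). DUSP1, a phosphatase of p38 and JNK, had the opposite pattern in a single retina, at 4.14 and 4.39 FPKM in ND against 4.63 and 55.2 in HFD, and without HFD replicate 1 its difference was 3.42 with an adjusted p of 0.0212, against a main adjusted p of 0.998 and 0.0967 for the difference without HFD replicate 2. Of 18 tested members, 9 were higher and 9 lower, and 3 lay above ND and 6 below with retinas apart, where 12.5% and 13.3% of all tested genes do so.

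Targets of BMP and Notch signalling leaned to the high side in HFD. The ID proteins, which hold back basic helix-loop-helix factors and follow BMP signals, stood apart from ND in both retinas. ID1 was at 44.8 and 53.1 FPKM in ND and 84.7 and 181 in HFD (1.33 ± 0.49), ID2 at 16.5 and 17.9 FPKM in ND against 25.1 and 48.2 in HFD (0.98 ± 0.37) and ID3 at 61.3 and 65.4 FPKM in ND against 109 and 234 in HFD (1.32 ± 0.69). ATOH8, a further BMP-induced factor, was at 1.298 and 1.597 FPKM in ND against 2.52 and 3.03 in HFD (0.63 ± 0.22). HFD replicate 2 was the higher one in all 4, and without it the ID1 difference was 0.78.

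HES2, a Notch-type repressor, was lower at 4.02 and 4.65 FPKM in ND against 1.82 and 1.78 in HFD (-0.93 ± 0.50). SMAD7, the inhibitor that BMP and TGF-β induce, overlapped at 2.56 and 1.998 FPKM in ND against 2.32 and 2.03 in HFD. Of the 10 tested members, 4 lay above ND and 1 below (12.5% and 13.3% of all tested genes), and 3 had both HFD retinas above all 6 others, where 5.42% of all tested genes do so (6.37% lay below all 6). The median difference of the list was 0.41, against 0.01 over all genes, and 0.04 without HFD replicate 2. Levels in the other diets differed between retinas too, with ID1 at 25.3 and 70.6 FPKM in HSD and 20.1 and 24.3 in HFSD.

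Of 16 clock genes, 2 lay above ND with retinas apart and 1 below (12.5% and 13.3% of all tested genes). CLOCK, the transcription factor at the core of the circadian loop, was at 21.9 and 20.7 FPKM in ND and 17.7 and 15.3 in HFD (-0.35 ± 0.12), below every other retina in both. CIART, a clock-controlled repressor, was at 11.3 and 9.19 FPKM in ND against 12.9 and 33.2 in HFD (0.96 ± 0.37), again with HFD replicate 2 far above the rest, and CRY1 at 13.6 and 13.001 FPKM in ND against 13.8 and 13.97 in HFD. The remaining 13 of 16 clock genes overlapped, and the median was 0.00061.

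CRYAB, the small heat shock protein αB-crystallin of glia and stressed photoreceptors, was at 208 and 187 FPKM in ND and 291 and 317 in HFD (0.62 ± 0.17). Both HFD retinas exceeded all 6 others, which ran from 123 to 208 FPKM. HSPH1, a partner of HSP70, was at 34.4 and 30.2 FPKM in ND against 41.8 and 35.5 in HFD (0.25 ± 0.14). Of 16 chaperone genes 4 lay above ND with retinas apart and 0 below (12.5% and 13.3% of all tested genes), 2 of them at an unadjusted p under 0.05 (1.8%). In all, 12 were higher in HFD, a direction that turned when libraries were scaled to equal sums (7 higher, 9 lower). EDN2, counted with the secreted early genes, was given above, and THBS1, the matricellular protein thrombospondin 1 of the same list, was lower at 3.06 and 3.199 FPKM in ND against 1.95 and 1.898 in HFD (-0.50 ± 0.17).

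Lipid genes stood apart between the diets at shares near those of all genes. Over the 6 lists and 129 tested genes, 14 lay above ND and 19 below with retinas apart (10.9% and 14.7%), against 12.5% and 13.3% of all tested genes. The number at an unadjusted p under 0.05 was 1 above and 5 below, where 1.8% and 2.51% of all tested genes were. Among the 5 is ACSL5, which only the ND retinas brought over the filter. The median difference was -0.05.

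Sterol synthesis, which cells turn down when they take up cholesterol, was lower in HFD for 15 of 20 genes, by a median of -0.06. Lanosterol synthase (LSS) was at 17.4 and 16.6 FPKM in ND against 15.1 and 16.02 in HFD. GGPS1, which feeds protein prenylation instead, was higher at 38.1 and 36.3 FPKM in ND against 45.9 and 42.4 in HFD (0.24 ± 0.13). The direction of the list depended on single retinas: without ND replicate 1, 17 of the 20 were higher in HFD, without ND replicate 2, 19 were lower, and without HFD replicate 2, 10 were higher and 10 lower. HMGCS1, an early enzyme of the pathway, showed this at 60.2 and 30.97 FPKM in ND against 37.6 and 41.1 in HFD, with both HFD retinas between those of ND.

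For fatty acid synthesis, desaturation and elongation, 16 of 19 genes were lower, by a median of -0.09, and 11 to 15 of the 19 were lower with any 1 retina left out. The acetyl-CoA carboxylases, which commit carbon to fatty acids, were at 8.76 and 9.83 FPKM in ND against 7.17 and 8.05 in HFD for ACACA (-0.26 ± 0.13) and at 2.25 and 2.11 FPKM in ND against 1.95 and 1.49 in HFD for ACACB. FADS3, of the desaturase family, was at 19.8 and 21.7 FPKM in ND against 17.97 and 18.4 in HFD. ELOVL4, which builds the very long chain fatty acids of photoreceptor membranes, overlapped at 193 and 209 FPKM in ND against 206 and 191 in HFD, and so did the desaturase FADS1 at 49.7 and 40.1 FPKM in ND against 44.1 and 40.2 in HFD. At an unadjusted p under 0.05 the list had 0 members, where 1.8% of all tested genes lay higher and 2.51% lower.

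Of 24 genes of sterol efflux and lipoprotein handling, 14 were higher in HFD and 10 lower (9 to 11 higher with any 1 retina left out), with 3 above ND and 5 below with retinas apart (12.5% and 13.3% of all tested genes). PLTP, which moves phospholipid between lipoproteins, was at 10.6 and 10.3 FPKM in ND and 7.15 and 7.84 in HFD (-0.43 ± 0.17). LPL, the lipase that frees fatty acids from circulating particles, was at 2.62 and 2.597 FPKM in ND against 1.51 and 1.78 in HFD (-0.45 ± 0.20). The scavenger receptor CD36 was higher at 1.72 and 2.42 FPKM in ND against 2.73 and 3.03 in HFD (0.35 ± 0.28), and so was LIPA, the lysosomal acid lipase, at 10.03 and 10.5 FPKM in ND against 13.4 and 11.3 in HFD (0.24 ± 0.15). APOD, a lipocalin of glia, overlapped because of 1 retina, at 53.4 and 39.9 FPKM in ND against 1.69 and 40.97 in HFD, and without HFD replicate 2 its difference was -4.13 with an adjusted p of 0.0104, against 0.998 with all retinas. The efflux transporter ABCA1, below the filter, was at 1.04 and 0.698 FPKM in ND against 0.473 and 0.494 in HFD.

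In fatty acid oxidation the most negative differences were at genes of low level. ACSL5, an acyl-CoA synthetase that only the ND retinas brought over the filter, was at 2.54 and 2.62 FPKM in ND and 0.848 and 0.431 in HFD (-1.14 ± 0.24). SLC22A4, a carnitine and ergothioneine carrier, was at 8.23 and 8.07 FPKM in ND and 1.18 and 2.87 in HFD (-1.66 ± 0.71). ACSL5 stood equally low in the HSD and HFSD retinas, at 0.349 to 0.708 FPKM, and SLC22A4 differed between retinas of 1 diet there (0.860 and 5.97 in HSD). PPARA, the nuclear receptor that turns this pathway on, was at 2.93 and 3.49 FPKM in ND against 2.41 and 2.25 in HFD (-0.34 ± 0.16), and its target ANGPTL4, an inhibitor of LPL, at 0.891 and 1.76 FPKM in ND against 0.755 and 0.757 in HFD. Over the list 13 of 33 genes were higher and 20 lower, a balance that turned with either ND retina or HFD replicate 2 left out. The enzymes ECI1 and ACADM of the mitochondrial pathway were among those higher, ECI1 at 63.6 and 79.2 FPKM in ND against 92.5 and 82.8 in HFD (0.30 ± 0.13) and ACADM at 23.9 and 25.1 FPKM in ND against 27.5 and 28.3 in HFD (0.18 ± 0.11).

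Of 19 lipid droplet genes 7 were higher in HFD and 12 lower (10 and 9 without HFD replicate 2), with 1 above ND and 3 below with retinas apart (12.5% and 13.3% of all tested genes) and 2 lower at an unadjusted p under 0.05 (2.51%). PLIN2, the coat protein that marks loaded droplets, overlapped at 10.99 and 9.48 FPKM in ND against 12.5 and 10.05 in HFD. PNPLA3, a lipase and acyltransferase of droplets, was at 135 and 122 FPKM in ND and 94.5 and 102 in HFD (-0.39 ± 0.12), CIDEA, which fuses droplets, at 5.72 and 4.58 FPKM in ND against 3.22 and 3.19 in HFD (-0.54 ± 0.22). G0S2, which inhibits the main triglyceride lipase, was at 24.3 and 39.2 FPKM in ND against 48.9 and 51.1 in HFD (0.68 ± 0.37).

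Of the fatty acid binding proteins and phospholipases, 4 of 14 lay above ND with retinas apart and 0 below (12.5% and 13.3% of all tested genes). FABP12, a retinal member of the family, was at 16.9 and 16.7 FPKM in ND and 33.01 and 30.3 in HFD (0.87 ± 0.18), the largest difference of the list among members with retinas apart. Its level was also higher than ND in the HSD retinas (23.95 and 32.2 FPKM) and the HFSD retinas (23.97 and 32.6 FPKM). FABP7, of Müller glia and astrocytes, was at 8.33 and 10.8 FPKM in ND against 13.4 and 13.6 in HFD (0.47 ± 0.24) and FABP5 at 19.3 and 20.8 FPKM in ND against 28.0 and 23.7 in HFD (0.35 ± 0.16). The calcium-independent phospholipase PLA2G6 was at 7.701 and 6.41 FPKM in ND against 7.93 and 7.87 in HFD.

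**Figure D3:**
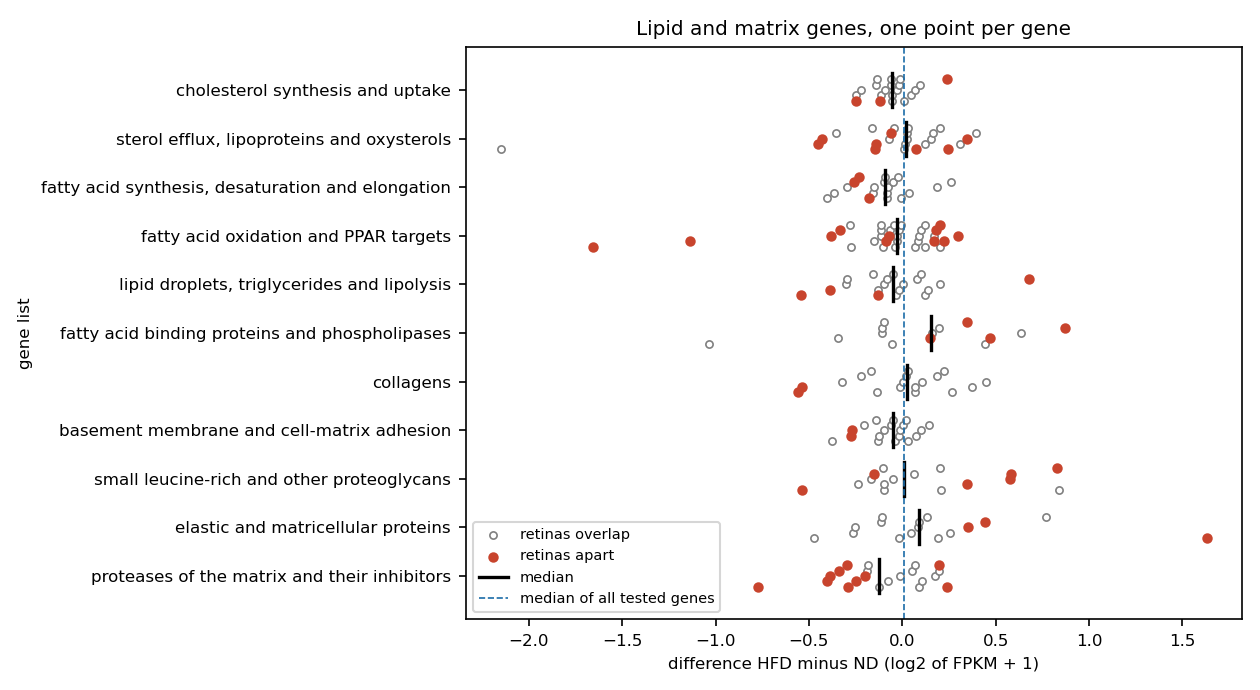
Differences HFD minus ND on the log2(FPKM + 1) scale for the tested members of 6 lipid and 5 matrix lists, 1 point per gene; filled red points have retinas that do not overlap, black bars are list medians and the dashed blue line is the median of all tested genes. List medians lie between -0.13 and 0.15, and CYTL1 (1.63), SLC22A4 (-1.66) and ACSL5 (-1.14) are the filled points farthest out. Only the ND retinas brought ACSL5 over the filter.

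Of 90 tested matrix genes, 9 lay above ND and 14 below with retinas apart (10% and 15.6%), near the 12.5% and 13.3% of all tested genes. The fibrillar collagens were not among those above. COL3A1 was at 1.299 and 0.183 FPKM in ND against 0.113 and 0.124 in HFD, where the ND mean rested on replicate 1, and COL8A1, a short-chain collagen of Descemet's and Bruch's membranes, at 5.096 and 7.41 FPKM in ND and 4.05 and 3.81 in HFD (-0.54 ± 0.23). No other of the 18 tested collagens separated. Basement membrane and adhesion genes behaved alike, with the integrins ITGA7 at 3.82 and 3.15 FPKM in ND against 2.71 and 2.67 in HFD and ITGB1 at 60.1 and 47.3 FPKM in ND against 41.2 and 46.97 in HFD below ND and the other 17 overlapping.

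Small proteoglycans were evenly split, 8 higher and 8 lower, and held the gene with the lowest p of the matrix lists. PRELP, which anchors basement membranes to collagen, was at 10.6 and 11.2 FPKM in ND and 17.6 and 22.8 in HFD (0.83 ± 0.17). SRGN, the proteoglycan core of secretory granules in blood-derived and endothelial cells, was at 38.8 and 42.3 FPKM in ND and 59.3 and 62.4 in HFD (0.58 ± 0.16). OGN and FMOD, which bind collagen fibrils, were at 19.2 and 33.5 FPKM in ND against 36.02 and 41.2 in HFD and at 8.88 and 11.6 FPKM in ND against 12.02 and 14.5 in HFD, while DCN, decorin, was lower at 1.62 and 0.532 FPKM in ND against 0.453 and 0.31 in HFD. Of 16 tested members 4 lay above and 2 below, where 12.5% and 13.3% of all tested genes do so.

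CYTL1, a secreted protein of cartilage and blood progenitors, had the largest difference of the matrix lists at 1.09 and 0.0528 FPKM in ND and 5.32 and 2.33 in HFD (1.63 ± 0.47), though ND replicate 2 was near 0. The elastic fiber genes LOXL1, which crosslinks elastin, and FBLN2, a fibulin, were at 10.8 and 17.02 FPKM in ND against 17.3 and 20.4 in HFD and at 3.51 and 5.02 FPKM in ND against 5.23 and 6.096 in HFD, both with 1 ND retina close to the HFD range.

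Of 21 matrix proteases and their inhibitors, 8 lay below ND and 2 above with retinas apart (13.3% and 12.5% of all tested genes). TIMP3, the inhibitor that Bruch's membrane stores, was at 18.1 and 10.4 FPKM in ND and 9.62 and 6.02 in HFD (-0.77 ± 0.33). TIMP4 was at 6.36 and 9.54 FPKM in ND against 5.64 and 5.68 in HFD (-0.40 ± 0.25). MMP24, a membrane-type protease of neurons, was at 12.1 and 10.8 FPKM in ND against 8.51 and 8.47 in HFD (-0.39 ± 0.12) and ADAM15 at 15.2 and 14.02 FPKM in ND against 11.6 and 11.05 in HFD (-0.34 ± 0.14). Tissue plasminogen activator (PLAT), named after its value was seen, was at 12.97 and 11.7 FPKM in ND against 9.78 and 9.96 in HFD and HTRA1, a secreted serine protease, at 30.4 and 29.2 FPKM in ND against 27.2 and 24.4 in HFD. TIMP1 was higher at 5.703 and 5.31 FPKM in ND against 6.57 and 6.33 in HFD. With any 1 retina left out, 12 to 18 of the 21 were lower.

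Cell-type markers showed 2 patterns, 1 between the diets and 1 within ND. Pigment epithelium genes outside retinol metabolism were lower in HFD for 12 of 15 tested, 6 with retinas apart and 0 apart in the other direction (13.3% and 12.5% of all tested genes). Among the 6 are 3 that only the ND retinas brought over the filter (STRA6, SLC39A12 and SLC6A20), and of the 12 other genes 9 were lower, 3 with retinas apart. TTR, the retinol and thyroxine carrier that pigment epithelium secretes, was at 144 and 88.6 FPKM in ND and 26.9 and 19.998 in HFD (-2.24 ± 0.58). MFRP, a frizzled-related membrane protein of pigment epithelium, was at 10.1 and 13.4 FPKM in ND and 3.95 and 3.31 in HFD (-1.45 ± 0.24). STRA6, the receptor for retinol binding protein, was at 3.97 and 3.57 FPKM in ND and 0.493 and 0.688 in HFD (-1.59 ± 0.25). SLC39A12, a zinc carrier listed for astrocytes as well, was at 2.76 and 2.38 FPKM in ND and 0.401 and 0.462 in HFD (-1.32 ± 0.24).

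The melanosome genes PMEL and TYRP1, of pigment cells in general, were at 11.3 and 31.9 FPKM in ND against 5.65 and 3.94 in HFD (-1.81 ± 0.62) and at 13.4 and 23.2 FPKM in ND against 3.71 and 4.52 in HFD (-1.87 ± 0.60). DCT, a later enzyme of melanin synthesis, was at 10.5 and 2.01 FPKM in ND against 1.79 and 1.81 in HFD, but TYR, the first and defining one, overlapped at 4.35 and 7.65 FPKM in ND against 7.14 and 4.53 in HFD. Other markers of pigment epithelium overlapped as well: RGR, an opsin shared with Müller glia, at 136 and 213 FPKM in ND against 147 and 218 in HFD, SERPINF1, the factor PEDF, at 3.88 and 4.49 FPKM in ND against 4.16 and 3.82 in HFD, KCNJ13, its apical potassium channel, at 11.1 and 18.5 FPKM in ND against 13.1 and 13.2 in HFD. BEST1, its defining basal channel, was below the filter at 0.438 and 0.517 FPKM in ND against 0.286 and 0.689 in HFD.

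Summed over the list, pigment epithelium markers stood at 432 and 451 FPKM in ND and at 283 and 334 in HFD. In the HSD and HFSD retinas the sums were lower still, 181 to 257. TTR there ran from 4.52 to 21.4 FPKM and STRA6 from 0.237 to 0.864. In both genes all of these retinas except HFSD replicate 1 lay below both HFD retinas. How much pigment epithelium came away with each retina is not given, and its part in these levels was not tested.

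Within ND, the retinas lay wider apart than those of HFD in myelin and astrocyte markers. Myelin markers summed to 768 FPKM in ND replicate 1 and 104 in ND replicate 2, with 502 and 363 in HFD between them. MBP, the myelin basic protein, was at 252 and 6.55 FPKM in ND against 172 and 104 in HFD. GFAP, the astrocyte filament, was at 524 and 12.1 FPKM in ND against 216 and 203 in HFD. The astrocyte sum was 1175 and 393 in ND and 986 and 620 in HFD. The hemoglobin gene HBB2 was at 81.03 and 7.84 FPKM in ND against 71.7 and 14.9 in HFD, the endothelial PECAM1 at 1.62 and 0.0485 FPKM in ND against 0.71 and 0.353 in HFD and the pericyte gene RGS5 at 8.97 and 0.184 FPKM in ND against 3.58 and 3.38 in HFD.

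Endothelium markers summed to 139.6 and 152.7 FPKM in ND and to 168.5 and 164.9 in HFD, with 0 of 8 tested genes apart (12.5% of all tested genes lay above and 13.3% below). The tight junction gene CLDN5, named after its values were seen, was at 28.01 and 1.03 FPKM in ND against 20.3 and 6.76 in HFD, the order of PECAM1, and 6 of the 8 were higher in HFD without ND replicate 1 and 6 lower without ND replicate 2. The sums did not follow CLDN5 and PECAM1, which were far lower in ND replicate 2, and rest mainly on other members.

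Ganglion cell genes followed the order of the myelin markers, POU4F1 at 9.62 and 3.33 FPKM in ND against 6.55 and 4.28 in HFD and POU4F2, both transcription factors of these cells, at 9.93 and 3.37 FPKM in ND against 7.2001 and 4.76 in HFD. All 14 ganglion cell genes were higher in HFD without ND replicate 1 and all 14 lower without ND replicate 2. For myelin 12 of 13 were higher without the first and all 13 lower without the second, and for microglia 12 of 12 higher and 10 of 12 lower. These lists therefore gave no direction of the diet, and 0 of the ganglion cell or microglia genes lay apart, where 12.5% of all tested genes lay above and 13.3% below. The microglial genes CSF1R and AIF1 were at 2.38 and 1.64 FPKM in ND against 2.14 and 1.66 in HFD and at 1.09 and 0.272 FPKM in ND against 1.05 and 0.699 in HFD.

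**Figure D4:**
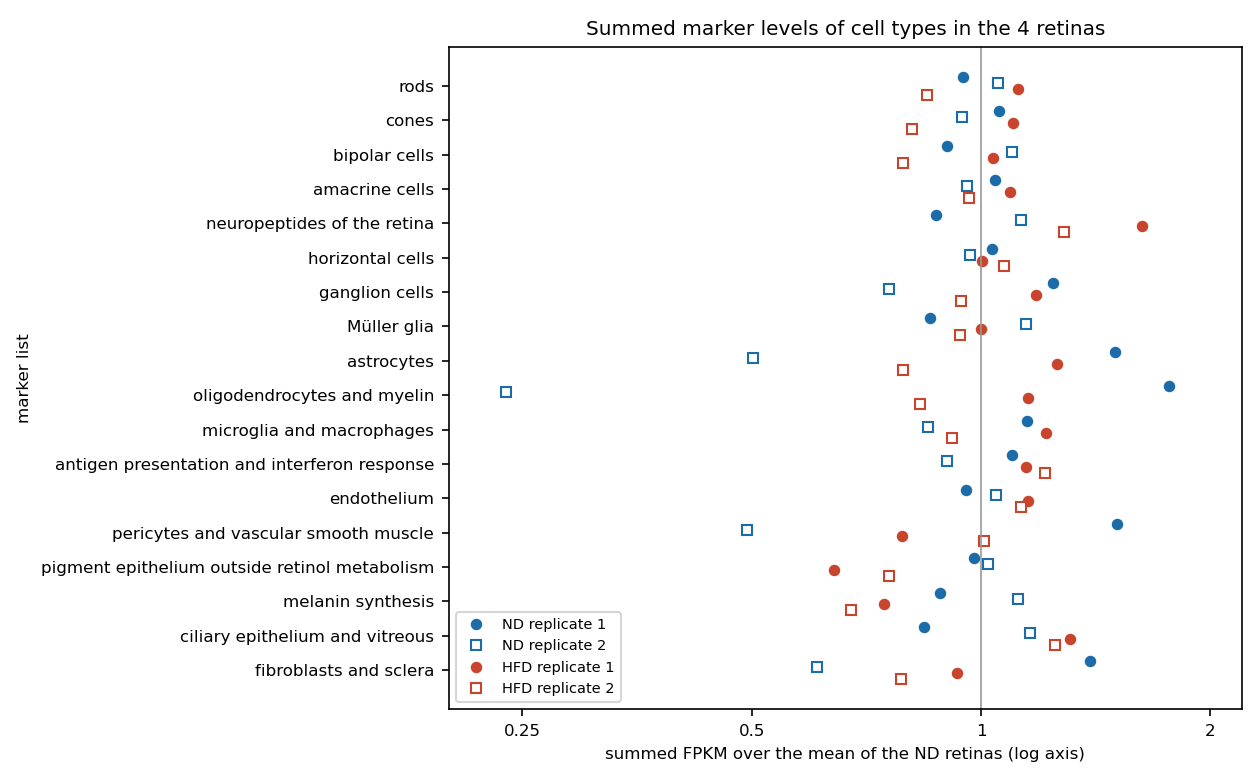
Summed FPKM of the markers of 18 cell types or tissues in each of the 4 retinas, divided by the mean of the 2 ND retinas, on a log axis; blue is ND, red is HFD, filled circles are replicate 1 and open squares replicate 2. Among these 18 lists the 2 ND retinas lie widest apart for oligodendrocytes and myelin (768 and 104 FPKM). Both HFD retinas lie below both ND ones for pigment epithelium and melanin synthesis. They lie above both for neuropeptides, antigen presentation, endothelium and ciliary epithelium.

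Among photoreceptors, SAG, at the levels given above, was the 1 of 8 rod genes that stood apart, with both HFD retinas above ND, the same share as the 12.5% of all tested genes. In all, 6 of the 8 were higher in HFD, and 3 without ND replicate 1 or without HFD replicate 1. PDE6A, the rod phosphodiesterase, overlapped at 729.5 and 1029 FPKM in ND against 946 and 938 in HFD. Cone genes were lower for 9 of 10. CNGA3 and CNGB3, the 2 subunits of the cone channel, were at 9.23 and 6.48 FPKM in ND and 5.88 and 4.05 in HFD (-0.57 ± 0.20) and at 6.42 and 5.43 FPKM in ND and 4.11 and 3.11 in HFD (-0.59 ± 0.20). SLC24A2, the cone exchanger for calcium, was at 13.3 and 8.62 FPKM in ND against 6.67 and 7.55 in HFD (-0.53 ± 0.20).

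OPN1SW, the short-wavelength cone pigment, went the other way at 69.1 and 67.6 FPKM in ND and 114 and 80.9 in HFD (0.49 ± 0.20). It is concentrated in the ventral retina of rabbits, and the HSD and HFSD retinas held 209 to 290 FPKM, so both ND and HFD were low. Cone arrestin (ARR3) overlapped at 395 and 361 FPKM in ND against 381 and 293 in HFD. Without HFD replicate 2 the count of lower cone genes was 6 of 10, and between 8 and 9 with any other retina left out. The region of the retina taken is not given, and its part was not tested.

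Of the inner neurons, PRKCA, which marks rod bipolar cells, was at 63.4 and 73.6 FPKM in ND against 51.7 and 45.2 in HFD (-0.49 ± 0.23). Amacrine genes differed by small steps, NEUROD2 at 10.9 and 9.64 FPKM in ND against 13.2 and 11.7 in HFD and SLC32A1, the vesicular GABA carrier, at 40.4 and 40.03 FPKM in ND against 37.2 and 38.2 in HFD, with PAX6 at 96.3 and 83.6 FPKM in ND against 86.3 and 101 in HFD. In horizontal cells CALB1 was at 32.3 and 35.3 FPKM in ND against 41.6 and 35.8 in HFD and the connexin GJA10 at 2.79 and 2.41 FPKM in ND against 1.77 and 1.97 in HFD.

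Of 13 neuropeptides, 5 lay above ND with retinas apart and 3 below (12.5% and 13.3% of all tested genes), and the 9 that were higher became 6 without ND replicate 2 or HFD replicate 1. Beside HCRT, VIP, a peptide of amacrine cells, was at 3.57 and 2.81 FPKM in ND and 5.36 and 6.73 in HFD (0.75 ± 0.24). NPVF, an RFamide peptide, was at 55.7 and 142 FPKM in ND against 165 and 143 in HFD. Ghrelin (GHRL) was lower at 6.97 and 8.899 FPKM in ND and 4.704 and 3.32 in HFD (-0.84 ± 0.26). NPY overlapped at 22.6 and 15.2 FPKM in ND against 24.8 and 14.5 in HFD. HCRT and VIP were lower in every HSD and HFSD retina than in HFD, at most 7.65 and 1.597 FPKM.

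The defining genes of Müller glia overlapped, GLUL, glutamine synthetase, at 1489 and 2127 FPKM in ND against 1685 and 1552 in HFD and RLBP1, the retinaldehyde binding protein, at 149.8 and 305 FPKM in ND against 229 and 186 in HFD. SLC1A2, a glutamate carrier counted in this list but used by bipolar cells and cones in the retina, was lower at 22.9 and 16.3 FPKM in ND and 9.94 and 12.7 in HFD (-0.73 ± 0.26). The gap junction protein GJA1 was lower too, at 35.99 and 14.1 FPKM in ND against 11.7 and 10.1 in HFD (-0.99 ± 0.49), where ND replicate 1 was the high one. CRYM, a thyroid hormone binding crystallin, was at 40.3 and 41.8 FPKM in ND against 57.2 and 98.9 in HFD.

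Antigen presentation genes were higher in HFD for 9 of 12 tested. CD74, the invariant chain of MHC class II, was at 6.12 and 3.64 FPKM in ND and 7.05 and 9.86 in HFD (0.70 ± 0.28), and the class II gene RLA-DR-ALPHA at 2.49 and 1.58 FPKM in ND and 3.03 and 4.41 in HFD (0.64 ± 0.27). ISG15, an interferon-induced modifier, was at 5.37 and 7.42 FPKM in ND and 8.29 and 14.2 in HFD (0.70 ± 0.28), while TAPBP, which loads class I molecules, was lower at 20.7 and 20.8 FPKM in ND against 18.6 and 15.3 in HFD. Retinas lay apart above ND for 4 of the 12 and below for 2 (12.5% and 13.3% of all tested genes), and 4 had both HFD retinas above the 6 others (5.42%).

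Barrier and glial carriers had 9 of 18 members higher and 9 lower, with 5 below ND and 1 above with retinas apart (13.3% and 12.5% of all tested genes). Among the 5 is SLC22A8, which only the ND retinas brought over the filter. SLC19A2, the thiamine carrier, was at 7.02 and 6.53 FPKM in ND and 4.396 and 3.11 in HFD (-0.72 ± 0.17), below every other retina, and the organic anion carriers SLCO1A2 and SLC22A8 at 4.07 and 3.55 FPKM in ND against 1.73 and 0.945 in HFD (-1.06 ± 0.26) and at 1.404 and 1.63 FPKM in ND against 0.489 and 0.421 in HFD (-0.79 ± 0.22). The GABA and taurine carrier SLC6A13 was at 4.14 and 5.33 FPKM in ND against 3.07 and 2.89 in HFD. In SLCO1A2 and SLC22A8 the HSD and HFSD retinas were lower again, at most 0.795 and 0.347 FPKM.

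Genes of the mitochondrial genome were higher for 11 of 13, by a median of 0.09, with COX2, a subunit of cytochrome oxidase, at 5302 and 5153 FPKM in ND against 6911 and 6866 in HFD (0.40 ± 0.27) and ATP8, of ATP synthase, at 53.4 and 68.7 FPKM in ND against 106 and 73.6 in HFD (0.54 ± 0.19). Without ND replicate 2 all 13 were higher and without ND replicate 1 it was 7.

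Set against the mean of the 3 other diets, 1 of the 12204 genes (0.00819%) differed in HFD by limma, SRGN. Beside its levels in ND and HFD given above, it stood at 10.5 and 12.6 FPKM in the HSD retinas and 6.005 and 8.29 in the HFSD retinas. The difference from the 3 diets was 1.94 ± 0.13 with an adjusted p of 0.0116, and without a filter on low values limma called 0 genes here, with 1858 at an unadjusted p under 0.05. ND lay between HFD and the other diets. PRELP was the next gene of the lists, at 4.43 and 3.43 FPKM in HSD and 10.5 and 11.3 in HFSD (1.25 ± 0.13, adjusted p = 0.1).

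Several genes described above had both HFD retinas beyond the 6 others. CRYAB was at 178 and 175 FPKM in HSD and 123 and 171 in HFSD (0.82 ± 0.14) and CHI3L1 at 26.1 and 15.1 and 24.3 and 12.1 (1.78 ± 0.28). For VIP the difference of HFD from the 3 diets was 1.38 ± 0.20, for HCRT 2.69 ± 0.50 and for CD74 1.29 ± 0.23. These 5 genes missed the threshold, with an adjusted p of 0.144 for VIP and of 0.19 for HCRT. CLOCK was a counterpart on the low side, at 20.7 to 25.8 FPKM in the 6 other retinas. STRA6, ACSL5 and TTR, by contrast, separated ND from all other retinas, and their HFD levels lay at -0.43 ± 0.20, -0.31 ± 0.20 and -0.03 ± 0.47 from the mean of the 3 diets, which includes the high ND. For STRA6 and ACSL5, which only the ND retinas brought over the filter, this separation was fixed by the filter.

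**Figure D5:**
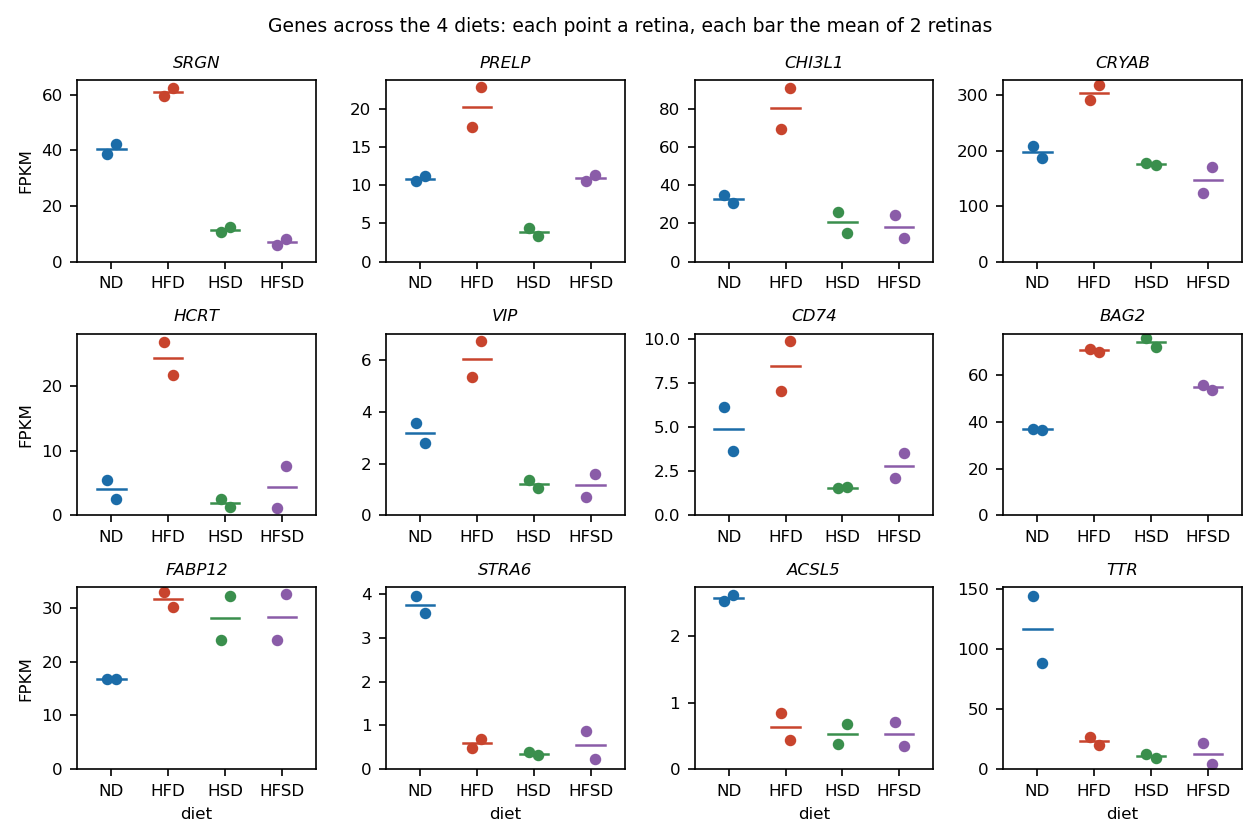
FPKM of 12 genes in the 4 diets on linear axes from 0; each point is a retina and each bar the mean of 2. SRGN to CD74 have both HFD points above the other 6, whereas for STRA6, ACSL5 and TTR the ND points stand apart from the other 3 diets. In STRA6 and ACSL5 the filter, which only the ND retinas passed, fixed this.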

How the data were processed

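RNA of 8 rabbit retinas was extracted with TRIzol and sequenced from TruSeq libraries. The authors trimmed the reads, mapped them with TopHat2 allowing up to 2 mismatches, removed multi-mapping reads and derived FPKM per gene in an R script of their own (FastQC is also named in the submitters' processing notes; versions, genome build and annotation are not given in the sources used here, so no coordinates are printed). The deposited table holds these FPKM values per library for 25666 genes, 19293 of them protein-coding and 13297 of these with a symbol, and 0 value columns lack a sample. Of the values above 0, 99.99% are whole multiples of 1 fragment within 0.001, which gave the library depths.

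A count model had been planned for counts. The values being FPKM, limma 3.58.1 (R 4.3.3) was run on log2(FPKM + 1), which understates changes of low genes, with a mean-variance trend and all 8 libraries in 1 model, over 12204 protein-coding genes, those that reach 1 FPKM in 2 or more libraries. Benjamini-Hochberg adjustment ran over all of these, with calls under 0.05. On simulated fragments for 12038 genes, 198 of 200 genes changed by a log2 of 2 in HFD were called, and so were 17 unchanged genes. The simulation gave every gene the same relative spread and changed only well-covered genes. Its share therefore does not carry over to the real retinas, where TTR (-2.24) and HCRT (2.39) missed the threshold. The fold rule used limits of 1.54 and 0.65. Alternatives varied the pseudocount (0.1), the filter, the scaling, each retina, the libraries in the fit, the replicate block and voom on recovered fragments.

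The 41 gene lists, written from general knowledge, and all comparisons were chosen with earlier results of these data known. Genes named are those called, the 12 largest differences in each direction with a symbol, an unadjusted p under 0.05 and retinas apart, the 4 largest of each list with retinas apart, the tested immediate early transcription factors, and the first 2 detected markers of each cell type. Some genes under this rule are not reported here. Others are members of the lists named after their values were seen. "Apart" means that both HFD retinas lay beyond both ND retinas. Gene sequences were not used here.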

Additional observations from a re-analysis of the deposited data

Results flagged for a closer look

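SRGN, the proteoglycan core of secretory granules, was the one gene whose level in HFD differed from the mean of the 3 other diets by the test of that difference in limma: 1.94 on the log2(FPKM + 1) scale, adjusted p = 0.0116. The HFD retinas held 59.3 and 62.4 FPKM, above the 6 others, with 38.8 and 42.3 in ND and far less in the sucrose diets (HSD 10.5 and 12.6, HFSD 6.005 and 8.29). No group holds enough retinas to look for one that stands apart by a test on its own group.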

How the results depend on the processing

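The gene called in HFD against ND was called in all 11 alternatives, alone in 6. Of 2 genes called, the second was APOD without HFD replicate 2, DUSP1 without HFD replicate 1 and, without either ND retina or with only the 4 libraries of HFD and ND, a different gene without symbol each time. Counts called were 2 to 2 with a retina left out and 2 with 4 libraries, and with 1 retina left in a group that retina is assumed to vary like the others. By the fold rule 339 genes passed, 1533 with a pseudocount of 0.1, 545 with libraries scaled to equal sums (226 above, 319 below) and 629 to 777 with a retina left out. Against the 3 other diets limma called 1 gene, 0 without a filter on low values (1858 at an unadjusted p under 0.05), 2 with the replicate block and 2 to 7 with a retina left out. Retinas of the same number deviated from their group means with a correlation of -0.034, so the numbers were not taken as pairs, and the replicate block called 1 gene in HFD against ND and left 475 genes at an unadjusted p under 0.05, against 526. Of 118 named genes with retinas apart, all kept their direction under all 11 alternatives except the chaperone DNAJB9, at -0.025 with equal sums. For genes chosen as apart only the rescaled settings and voom could turn a direction, so the other alternatives are no test of it. Of 41 gene lists, 4 had as many higher as lower genes, the balance turned in 20 with at least 1 retina left out, and in 17 it did not. With 2 retinas a group, a gene had to differ by far more than its spread to be called, and low levels rest on few fragments.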

Other observations

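Some genes passed the fold rule because of 1 retina, and were chosen here after their values were seen. PLEKHB2, an endosomal protein, was listed at 0 in both ND retinas and in HFD replicate 2 but at 110 FPKM in HFD replicate 1 (10426 fragments), and in the other diets at 0 and 46.6 in HSD and 104 and 0 in HFSD. RPS21, a ribosomal protein gene, was at 190.1 and 201 FPKM in ND against 617 and 189 in HFD, and GAPDH, a glycolytic enzyme often used as a reference gene, at 925 and 542 FPKM in ND against 189 and 630.3 in HFD. RPL32, another ribosomal protein gene, was at 46.6 and 69.6 FPKM in ND against 31.3 and 20.5 in HFD, with retinas apart. GAPDH and ribosomal protein genes have many processed copies in mammalian genomes, and reads that mapped to several places had been discarded, so these levels are uncertain.

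OPTC, the vitreous proteoglycan opticin made by the ciliary epithelium, was at 0.146 and 11.7 FPKM in ND against 37.6 and 0.209 in HFD and at 0 to 0.0835 FPKM in the HSD and HFSD retinas. CRYBB2, a lens crystallin that neurons also express, was at 2.92 and 3.83 FPKM in ND against 6.06 and 8.23 in HFD (0.89 ± 0.24), whereas CRYBA1, which marks lens fibers, was at 0 and 0 FPKM in ND against 0 and 0.0577 in HFD. The skeletal muscle genes found in the table summed to 23.2, 22.4, 23.2 and 20.1 FPKM in the 4 retinas, with CKM at 0.0829 and 0 FPKM in ND against 0 and 0.178 in HFD, so muscle RNA was not seen in these libraries beyond that level.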
